A study of Mus musculus with 16 samples.

Results

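The hearts of aged Haplotype-I mice fed a western diet were compared with those of aged Haplotype-I mice without the diet, 5 libraries against 4, in a series of 16 libraries. All 9 animals were of the C57/BL6 strain and, by the series title, overexpressed the human angiotensin type 1 receptor, here its haplotype I (Hap-I). The series also holds 3 hearts of adult C57 mice and 4 of adult Hap-I mice, which are labelled as fed the western diet by their group label, whereas the design text lists them without a diet. The labels used here give no sex, no age in months, no diet composition or duration, and not the promoter that drives the transgene. Each library is labelled as heart, and the design text counts 3 to 5 animals a group. Markers of atrial muscle differed widely between libraries, as given below, so the libraries may not hold equal parts of the heart. A gene was kept where it reached 1 TPM (a relative abundance corrected for transcript length) in at least 3 of the 16 libraries, which held for 11415 of the 30153 genes in the table. Values below are scaled TPM, and fold changes are differences of log2(scaled TPM + 1), western diet minus no diet. This scale understates the change of low genes.

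The receptor is the main target of angiotensin II and acts in vessels, kidney and heart on vascular tone, salt balance and muscle growth. Western-type feeds for mice combine much fat with sugar and often added cholesterol. The adult heart burns mostly fatty acids and shifts between fat and glucose partly through pyruvate dehydrogenase, the enzyme complex that admits pyruvate to the tricarboxylic acid cycle and that is shut off by its kinases. Cells that take in enough cholesterol lower the genes of sterol synthesis, which the factor SREBP2 drives.

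Ventricular contractile genes were abundant in all 9 libraries, with a summed level of 60670 to 80240 scaled TPM. The human transgene was not analysed here. Atrial markers summed to 126 to 5237 scaled TPM in the hearts without diet and to 118 to 233 in those with it, and Myl7, the atrial myosin light chain, stood at 166, 1.06, 1140 and 2.46 without diet and at 0.390, 0.360, 0.677, 17.6 and 1.04 with it. Transcripts of the 4 Y-linked genes were present in all 4 hearts without diet and in diet replicates 4 and 5, and near 0 in diet replicates 1 to 3. Mitochondrially encoded genes took 34.6% to 36.5% of the TPM without diet and 37.2% to 45.9% with it. Diet replicate 5 stood apart on the second principal component, at -35.3 against -1.7 to 11.3 for the other 8 libraries. The labels give no batch.

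Of the 11415 genes, 19 (0.166%) differed between diet and no diet at an adjusted p under 0.05, 9 higher (0.0788%) and 10 lower (0.0876%). The 9 were Pdk4, Tmem181b-ps, Wdfy1, Gfer, Banp, Lrrn4cl, Pmepa1, Slc25a22 and Rnf44. Among the 10 were C7, Gm16867, Cntn2, Myh11, Myl9, Entpd4b, Smim3, Kcnq1 and Extl2. The 2 groups did not overlap in any of the 19. Over all genes, groups did not overlap in 370 higher (3.24%) and 445 lower (3.9%). An unadjusted p under 0.05 was reached by 892 genes higher (7.81%) and 925 lower (8.1%), 1817 together against 571 that a p of 0.05 would give by its definition. List counts below are to be read beside these shares of all genes. The lists and their members were chosen with earlier results of these data known, so their counts and medians are descriptions and not tests. Over all genes tested the median value was 0.003. The test was limma on all 16 libraries with 4 group means, and its p-values measure the spread between these libraries.

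The count of 19 depended on single libraries. It was 4, 4, 4 and 6 without each no-diet replicate in turn, 5 without diet replicate 2, 7 without diet replicate 3 and 92 without diet replicate 5. Gm16867, Entpd4b, Wdfy1 and Cntn2 passed in all 9 fits that left 1 of these libraries out. The other 15 passed in only 1 to 4 of the 9 fits, at adjusted p-values up to 0.155 by limma. Gm16867 and Cntn2 met the filter through libraries in which they are high, which limits their p-values. Gm16867 and Entpd4b are copies among which the division of reads is uncertain, so they are not separate results. All 19 genes kept their sign in every setting in which they were fitted. Without the scaling between libraries 25 genes passed, 4 higher and 21 lower, with the median of all genes at -0.16 rather than near 0. With a covariate for Y-linked transcripts 10 of the 19 still passed. Myh11, Myl9, Slc25a22, Gfer, Pmepa1, Banp, Lrrn4cl, Rnf44 and Smim3 did not, at adjusted p-values of 0.0647 to 0.115 by limma. All hearts without diet but only diet replicates 4 and 5 of the diet hearts held these transcripts. Their presence and the diet are thus partly confounded. With a covariate for atrial markers 5 of the 19 passed, which were Gm16867, Entpd4b, Wdfy1, Cntn2 and Gfer. The others were at adjusted p-values of 0.0668 to 0.135 by limma, among them Pdk4 and Kcnq1 at 0.0668, C7 at 0.105 and Myl9 at 0.135.

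**Figure D1:**
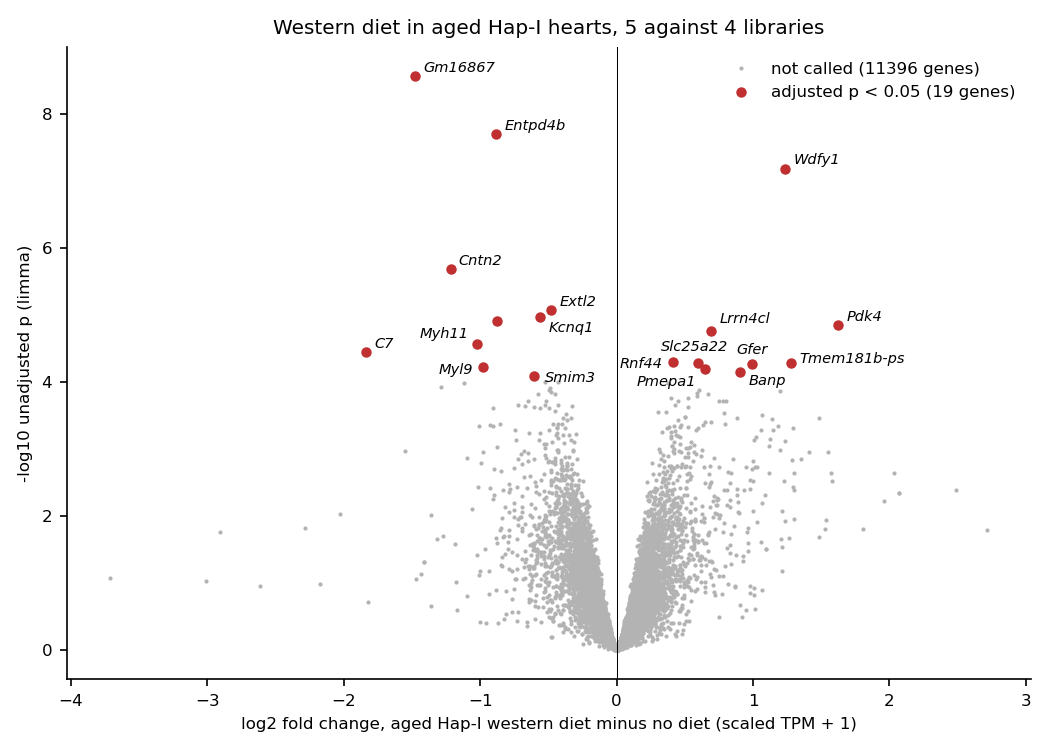
Log2 fold change of western diet minus no diet (x axis) against the negative log10 of the unadjusted limma p (y axis) for 11415 genes in aged Hap-I hearts. Red points are the 19 genes at an adjusted p under 0.05, with C7 farthest to the left among them and Pdk4 farthest to the right.

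The diet hearts had more RNA of Pdk4, the kinase that switches off pyruvate dehydrogenase and a classic target of fatty acids and fasting. Pdk4 (chr6:5483351-5496309 in the GENCODE annotation of GRCm38, as for the other gene positions given) stood at 40.9, 33.5, 32.1 and 29.2 scaled TPM without diet and at 75.8, 77.2, 155, 155 and 94.7 with it. Every diet heart lay above every heart without diet, and diet replicates 3 and 4 were the highest. The means were 33.9 ± 4.98 (SD, n = 4) and 112 ± 40.3 (SD, n = 5), a log2 fold change of 1.62 (SE 0.26, adjusted p = 0.0203 by limma). Slc25a22, a mitochondrial glutamate carrier, rose from 8.93 ± 0.668 to 14.1 ± 1.25 (log2 fold change 0.60, SE 0.11, adjusted p = 0.0411 by limma). Its hearts without diet held 9.92, 8.73, 8.58 and 8.49 and its diet hearts 13.9, 14.8, 13.7, 15.7 and 12.3. Of 36 mitochondrial solute carriers tested, Slc25a22 alone passed the test, and 8 against 1 had an unadjusted p under 0.05 in the higher and the lower direction. Gfer, a sulfhydryl oxidase of the mitochondrial intermembrane space, rose from 1.80 ± 0.432 to 4.57 ± 0.862 (log2 fold change 0.99, adjusted p = 0.0411).

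Other targets of PPARα, the receptor by which fatty acids raise the genes of their own use, did not pass the test as single genes. Angptl4, a secreted inhibitor of lipoprotein lipase, was at 2.99, 1.05, 1.67 and 1.65 without diet and at 5.09, 4.23, 3.83, 7.38 and 5.19 with it. Its groups did not overlap, with a log2 fold change of 1.13 (adjusted p = 0.0696). Plin2, the coat protein of lipid droplets, averaged 38.5 ± 3.22 without diet and 49.0 ± 2.52 with it (0.34, adjusted p = 0.0859). Of the 30 PPARα targets tested, 6 had an unadjusted p under 0.05 and a higher mean, 0 a lower one, 19 had a positive value and the median was 0.11. That median was -0.09 without scaling and 0.06 without no-diet replicate 3. Among 34 genes of fatty acid oxidation and ketone enzymes 1 was higher and 2 were lower by the same measure, with a median of -0.14, and Cpt1b, which brings fatty acids into mitochondria, stood at 207 ± 13.4 and 195 ± 23.6. Lpl, the lipase that frees fatty acids from circulating lipoproteins, averaged 732 ± 242 with diet and 1212 ± 78.7 without (-0.79, adjusted p = 0.123).

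Genes of cholesterol synthesis and uptake leaned lower with the diet. Of 20 tested, 7 had an unadjusted p under 0.05 and were lower, 0 were higher, and 19 had a negative value, with a median of -0.22 beside 0.003 for all genes. Mvd, an enzyme of the mevalonate pathway, stood at 2.99, 3.44, 2.66 and 2.77 without diet and 1.93, 1.94, 1.67, 2.19 and 1.96 with it (-0.43, adjusted p = 0.0512). Its groups did not overlap. Idi1, which isomerises the isoprenoid building block, was at -0.31 (adjusted p = 0.107) and Hmgcs1, the first committed enzyme of the pathway, at -0.24 with overlapping groups (adjusted p = 0.397). The mean deviation of the 20 genes was negative in all 5 diet hearts, at -0.17, -0.32, -0.22, -0.34 and -0.18.

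**Figure D2:**
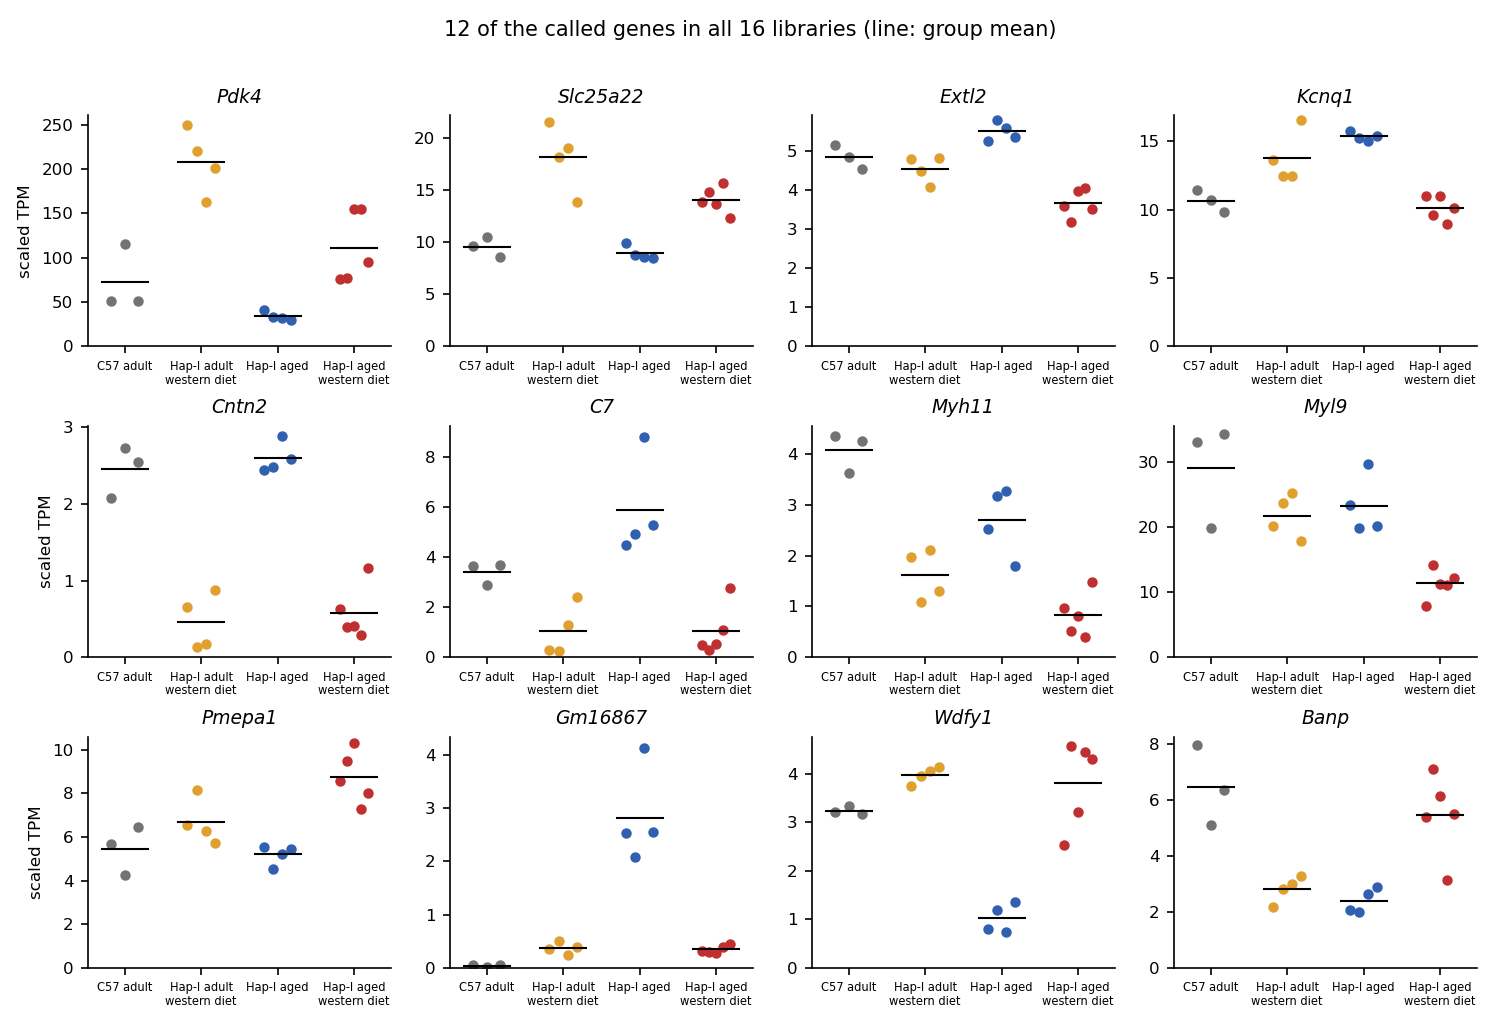
Scaled TPM (y axes, from 0) of 12 of the 19 genes in the 16 libraries, by group on the x axis, with 1 point per library and a line at each group mean. Red points (aged Hap-I on western diet) lie wholly above or below blue points (aged Hap-I without diet) in each panel, as for Pdk4 at 75.8 to 155 against 29.2 to 40.9.

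Genes of glucose use and of the tricarboxylic acid cycle leaned lower without single genes passing the test. Of 25 genes of glucose uptake and glycolysis, 10 had an unadjusted p under 0.05 and were lower and 1 was higher, 20 had a negative value, and the median was -0.18. Slc2a1, the basal glucose transporter GLUT1, was at 5.53, 5.53, 4.71 and 5.56 without diet and at 4.53, 2.97, 3.92, 2.5 and 3.80 with it (-0.49, adjusted p = 0.0622). Slc2a4, the insulin-responsive transporter GLUT4, averaged 149 ± 7.55 and 109 ± 16.4 (-0.46, adjusted p = 0.094), and neither transporter's groups overlapped. Of 19 genes of the tricarboxylic acid cycle 9 were lower at an unadjusted p under 0.05, 0 were higher and the median was -0.24, led by Ogdh, a subunit of the oxoglutarate dehydrogenase complex, at -0.53 (adjusted p = 0.219). Diet replicate 5 was lowest on this list, with a mean deviation of -0.44 against -0.17 to -0.10 in the other 4 diet hearts. Of 18 genes of branched-chain amino acid breakdown 6 were lower and 0 higher by the same measure (median -0.16, and -0.10 without diet replicate 5). Nuclear genes of complex I had a median of -0.04 over 37 genes.

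Of the 13 mitochondrially encoded genes, 12 had a positive value and 3 an unadjusted p under 0.05, with a median of 0.40. Mt-Nd2, a complex I subunit, was at 13290, 14290, 12530 and 12780 scaled TPM without diet and at 15130, 19220, 14460, 26550 and 25170 with it. Replicates 4 and 5 were highest, and without them the list's median was 0.15. Under quantile normalization the median was 0.07.

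Myh11 and Myl9, contractile genes of smooth muscle, were lower in the diet hearts. With the covariate for Y-linked transcripts both were at -0.96 and neither passed (adjusted p = 0.0683 and 0.0889 by limma). Myh11, the smooth muscle myosin heavy chain, stood at 2.53, 3.18, 3.27 and 1.79 without diet and at 0.975, 0.513, 0.801, 0.395 and 1.48 with it. Its groups did not overlap, though the lowest heart without diet lay near the highest with it (log2 fold change -1.02, SE 0.17, adjusted p = 0.0311 by limma). Myl9, a myosin light chain of smooth muscle and non-muscle cells, stood at 23.3, 19.8, 29.7 and 20.1 without diet and at 7.90, 14.2, 11.3, 11.1 and 12.2 with it (-0.98, adjusted p = 0.0429). The 5 diet hearts were also below the other 11 libraries for Myl9. Tagln, an actin-binding protein of smooth muscle, was at 16.3 ± 1.35 and 8.46 ± 2.1 (-0.90, adjusted p = 0.0998), and 62.2% of its 31-base words occur in other gene entries. Acta2, smooth muscle actin, was at 27.6, 25.4, 31.8 and 32 against 17.0, 123, 49.5, 17.7 and 33.9, with overlapping groups (0.32, adjusted p = 0.786). Of 23 smooth muscle and pericyte genes 8 were lower at an unadjusted p under 0.05 and 0 higher, with a median of -0.21, which was -0.11 without diet replicate 2 and -0.33 without diet replicate 5. In bulk tissue, fewer cells of a type and less RNA per cell cannot be told apart.

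The lower genes included 2 linked to cardiac excitation, Cntn2 and Kcnq1. Cntn2, a cell adhesion protein known in the heart from the Purkinje fibres of the conduction system (chr1:132509427-132543256), was at 2.44, 2.48, 2.88 and 2.59 without diet and at 0.622, 0.389, 0.403, 0.284 and 1.17 with it. The diet hearts all lay below those without diet (log2 fold change -1.22, SE 0.17, adjusted p = 0.0058 by limma). Of the libraries with the diet only aged replicate 5 exceeded 1, so Cntn2 was kept through libraries without the diet. Its p-values carry that limit wherever they are given. Kcnq1, the pore of the slow delayed-rectifier potassium channel (chr7:143106362-143427042), was at 15.8, 15.2, 15 and 15.4 without diet and at 11, 9.61, 11, 8.93 and 10.1 with it. Its spread within each group was small, with means of 15.4 ± 0.322 and 10.1 ± 0.904 (-0.56, SE 0.09, adjusted p = 0.0196). Kcnq1 was the only one of 19 cardiac potassium channel genes to pass, and their median was -0.26, which ranged from -0.25 to -0.08 with 1 library left out. Hcn4, the pacemaker channel, was at 2.20 ± 0.221 and 1.37 ± 0.311 (-0.44, adjusted p = 0.066). Among 29 calcium cycling genes 7 were lower and 2 higher at an unadjusted p under 0.05 (median -0.12), and Hrc, a calcium-binding protein of the sarcoplasmic reticulum, stood at -0.90 (adjusted p = 0.143).

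Mouse renin-angiotensin genes did not pass as single genes. Agtr1a, the mouse type 1a angiotensin receptor, stood at 16.1, 17.3, 15 and 19.1 without diet and at 12.3, 12.4, 10.2, 14.9 and 14.7 with it. The groups did not overlap, yet the difference did not pass the test (-0.37, adjusted p = 0.189). Ace, the converting enzyme, varied from 2.76 to 12.1 among the diet hearts and from 11 to 12.3 among those without diet (-0.80, adjusted p = 0.245). Of 13 genes on the list 4 were lower at an unadjusted p under 0.05 and 0 higher, with a median of -0.22. Acta1, the skeletal actin that is raised in hypertrophied hearts, had means of 91.4 ± 25.8 and 216 ± 75.8 (1.21, adjusted p = 0.172). Nppa and Nppb, the natriuretic peptides, had values of -1.36 (adjusted p = 0.574) and -0.35 (adjusted p = 0.782). Nppa ranged from 94.0 to 2894 without diet, highest in the replicate with the most Myl7, and the part of atrial tissue in it was not tested.

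C7, a terminal component of complement, was lower in the diet hearts. C7 was at 4.49, 4.94, 8.83 and 5.29 without diet and at 0.468, 0.30, 0.542, 1.09 and 2.77 with it. Diet replicate 5 was the highest of its group and still below all hearts without diet (-1.84, SE 0.32, adjusted p = 0.0373 by limma). With a covariate for Y-linked transcripts, which are near 0 in diet replicates 1 to 3, the value was -1.21 (adjusted p = 0.0351), and with only libraries that hold them -1.26 (adjusted p = 0.0612). It was the only one of 20 complement genes to pass, and their median was 0.06. Ccn5, a secreted matrix protein, was at 5.21 ± 1.70 and 1.91 ± 1.01 (-1.12, adjusted p = 0.0512), and Mfap5, of elastic microfibrils, at 10.3 ± 1.76 and 16.0 ± 1.85 (0.59, adjusted p = 0.0522). Pmepa1, a target and inhibitor of TGF-β signalling, was at 5.56, 4.54, 5.23 and 5.46 without diet and at 8.58, 9.47, 10.3, 7.28 and 8.02 with it (0.64, adjusted p = 0.0432). It was the only one of 31 genes of TGF-β ligands, receptors and feedback to pass, with a median of 0.07.

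Of 35 collagen and basement membrane genes 29 had a negative value and 7 an unadjusted p under 0.05 in that direction, with a median of -0.45 (-0.60 to -0.27 with 1 library left out). The diet hearts differed among themselves. Their mean deviations on this list were 0.18, -1.0, -0.43, -1.02 and 0.30, so that replicates 1 and 5 lay above the mean without diet and replicates 2 and 4 far below. Col3a1, a fibrillar collagen, was at 54.0, 51.1, 65.2 and 57.9 without diet and at 64.3, 15.2, 28.6, 17.9 and 68.8 with it, with overlapping groups (-0.79, adjusted p = 0.342). Col4a1, of basement membranes, was at 69.2, 12.1, 23.4, 14.8 and 67.8 in the diet hearts, with replicates 1 and 5 again the highest and replicates 2 and 4 the lowest. The 19 fibroblast markers had mean deviations of 0.25, -0.56, -0.11, -0.58 and 0.22 in the diet hearts and the 30 endothelial markers 0.13, -0.28, -0.21, -0.36 and 0.25, so that replicates 2 and 4 were lowest and replicates 1 and 5 highest on all 3 lists. The part of these cells in the collagen values was not tested. The median was -0.12 for the fibroblast markers (-0.24 to 0.01 with 1 library left out) and -0.10 for the endothelial ones (-0.16 to -0.03).

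A mean deviation above 0 on the interferon-stimulated genes was seen in 4 of the 5 diet hearts. None of the 53 tested passed on its own, and 52 had a positive value. By an unadjusted p under 0.05, 34 were higher, beside 7.81% of all genes, and 0 were lower. The groups did not overlap in 13, all higher, beside 3.24% of all genes. The median was 0.61. The 5 diet hearts had mean deviations of 0.50, -0.01, 0.41, 1.01 and 1.72, so that replicate 5 was highest and replicate 2 lay at the level without diet. Without replicates 4 and 5, a setting chosen after these values were seen, the median was 0.32. With only libraries holding Y-linked transcripts, which keep replicates 4 and 5 alone of the diet hearts, 29 of the 53 genes passed at a median of 1.20. The C57 hearts stood at 0.32, 0.24 and 0.78 on this list and the adult Hap-I hearts at 0.18 to 0.52. All of these lay above the aged hearts without diet. In adult western-diet Hap-I hearts minus C57 hearts the median was -0.03, with 24 of the 53 genes positive. There 3 were lower and 0 higher at an adjusted p under 0.05 by limma.

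Isg15, a ubiquitin-like protein, stood at 4.72, 3.42, 4.18 and 4.40 without diet and at 12.1, 6.16, 6.58, 27.8 and 41.7 with it (1.58, SE 0.45, adjusted p = 0.117 by limma). Ifit1, which binds foreign RNA, was at 1.24, 1.29, 1.46 and 1.99 without diet and at 3.37, 1.30, 3.58, 7.99 and 19.3 with it (1.30, adjusted p = 0.19). Bst2, which tethers budding viruses to the cell, was at 20.1, 17.3, 19.3 and 16.6 without diet and at 27.0, 22.8, 25.2, 65.5 and 91.9 with it (1.07, adjusted p = 0.159). Isg15 and Bst2 did not overlap between groups, Ifit1 did, and replicates 4 and 5 were the highest for all 3. Irf7, the master factor of the interferon response, had the largest value of the list at 2.03 (adjusted p = 0.107). It stood at 4.79, 4.70, 3.93 and 3.12 against 12.8, 6.54, 9.04, 49.7 and 72.9. Of 16 macrophage and monocyte markers 2 were higher at an unadjusted p under 0.05 and 0 lower, with a median of -0.02, and the neutrophil genes S100a8 and S100a9 had overlapping groups. Their part in the interferon values was not tested.

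The interferon-stimulated response element, bound by the STAT and IRF factors that interferons activate, was looked for as GAAA, any 2 bases and GAAA again, on both strands, in RefSeq windows of 250 bases before to 50 after the gene start (GRCm38.p6). Matches may overlap each other. It was in 3.44% of 32851 windows, in 3.68% of the 8734 tested genes that had a window, and in 21 of the 41 interferon genes with a window (51.2%). The windows of Isg15 (chr4:156200819-156201018, minus strand), Ifit1 (chr19:34640689-34640888, plus strand) and Bst2 (chr8:71537473-71537672, minus strand) are shown, as 200 bases up to the start with the matched bases in capitals, because these genes carried the element and their values show the spread among the diet hearts. A match describes the letters and not a bound site.
Isg15: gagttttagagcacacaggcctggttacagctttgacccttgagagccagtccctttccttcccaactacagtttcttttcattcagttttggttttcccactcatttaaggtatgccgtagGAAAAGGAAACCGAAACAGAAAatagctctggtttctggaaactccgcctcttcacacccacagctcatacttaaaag
Ifit1: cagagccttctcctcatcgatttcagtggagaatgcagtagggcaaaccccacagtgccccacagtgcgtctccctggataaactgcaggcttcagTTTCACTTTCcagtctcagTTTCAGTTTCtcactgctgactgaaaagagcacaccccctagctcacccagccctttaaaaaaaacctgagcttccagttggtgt
Bst2: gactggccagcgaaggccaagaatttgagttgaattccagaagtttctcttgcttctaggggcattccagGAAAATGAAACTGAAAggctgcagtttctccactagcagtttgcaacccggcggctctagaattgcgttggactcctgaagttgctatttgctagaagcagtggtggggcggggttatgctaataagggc

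**Figure D3:**
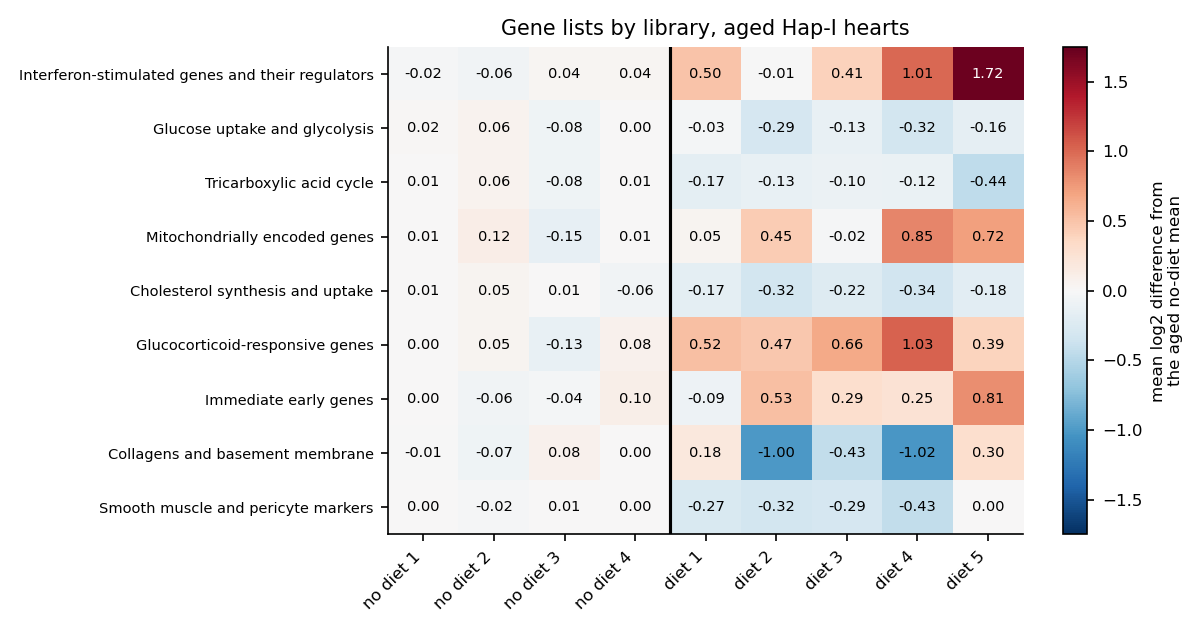
Mean log2 difference from the aged no-diet mean (colour and printed value) of 9 gene lists (rows) in the 9 aged Hap-I libraries (columns). The glucocorticoid row is positive in all 5 diet hearts (0.39 to 1.03), the interferon row runs from -0.01 to 1.72, and the collagen row from -1.02 to 0.30.

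Genes that respond to glucocorticoids formed a list higher in all 5 diet hearts. Of 23 tested, Pdk4 passed and 22 had a positive value, with a median of 0.65. By an unadjusted p under 0.05, 15 were higher, beside 7.81% of all genes, and 0 were lower. The groups did not overlap in 11, all higher, beside 3.24% of all genes. The mean deviations were 0.52, 0.47, 0.66, 1.03 and 0.39, and the median lay between 0.46 and 0.77 over all settings. The C57 hearts stood at 0.56, 0.62 and 0.78 and the adult Hap-I hearts at 0.18 to 0.67. The aged hearts without diet, at -0.13 to 0.08, were thus the low group of the series on this list. Pdk4 and Angptl4 are also PPARα targets and count in both lists.

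Sgk1, a kinase that acts on ion channels, was at 14.2, 15.1, 13.9 and 20.8 without diet and at 23.9, 21, 26, 28.0 and 28.4 with it (0.65, adjusted p = 0.0615 by limma). Fam107a, an actin-binding protein induced by stress, was at 0.891, 0.846, 0.795 and 0.898 without diet and at 2.55, 1.60, 2.23, 3.28 and 1.03 with it (0.71, adjusted p = 0.145). Fkbp5, the co-chaperone that dampens the glucocorticoid receptor, was at 2.83, 2.96, 3.90 and 3.56 without diet and at 7.64, 5.25, 5.82, 8.51 and 3.92 with it (0.71, adjusted p = 0.0893). None of the 3 overlapped between groups, and for Fkbp5 the highest heart without diet lay just under the lowest with it. Cebpb, a transcription factor of metabolism and inflammation, was at 2.42 ± 0.289 and 5.51 ± 2.08 (0.88, adjusted p = 0.0605). Cdkn1a, the cell cycle inhibitor p21, was at 5.79 ± 0.992 and 14.5 ± 5.60 (1.14, adjusted p = 0.0615).

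In the adult contrast, western-diet Hap-I hearts minus C57 hearts, the same list had a median of -0.49, with 6 genes lower and 1 higher at an adjusted p under 0.05, where 394 of all genes (3.45%) passed. The aged and the adult contrast differed in 4 of the 23 genes at an adjusted p under 0.05, a difference found in 78 of all genes (0.683%). For Fkbp5 it was 1.61 (adjusted p = 0.0141), for Cebpb 1.66 (adjusted p = 0.0141) and for Fam107a 1.64 (adjusted p = 0.027). Fam107a was at 2.39 to 2.52 in C57 hearts, within the range of the aged hearts on the diet. The adult contrast changes genotype as well as diet, so that the 2 cannot be told apart in it.

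The glucocorticoid response element was looked for as its half-sites GNACA and TGTNC with any 3 bases between them, on both strands, in the same windows. It was in 0.475% of windows, in 0.424% of tested genes with a window, and in 3 of the 20 glucocorticoid-responsive genes with one (15%), namely Sgk1, Mt1 and Fam107a. The windows of Sgk1 (chr10:21993690-21993889, plus strand) and Fam107a (chr14:8309778-8309977, minus strand) are given because both genes were higher in every diet heart than in any heart without it, by a narrow margin for Sgk1 (21 against 20.8). Capitals mark the match, and neither window holds the interferon element.
Sgk1: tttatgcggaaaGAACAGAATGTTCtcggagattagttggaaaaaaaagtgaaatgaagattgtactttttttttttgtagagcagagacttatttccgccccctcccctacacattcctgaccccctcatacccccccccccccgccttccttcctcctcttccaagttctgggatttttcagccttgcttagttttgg
Fam107a: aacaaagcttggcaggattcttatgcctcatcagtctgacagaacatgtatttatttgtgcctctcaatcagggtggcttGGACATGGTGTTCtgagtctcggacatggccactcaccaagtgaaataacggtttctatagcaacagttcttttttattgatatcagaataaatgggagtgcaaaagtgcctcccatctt

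Immediate early genes, the first genes switched on by a stimulus, had 8 of 20 higher and 0 lower at an unadjusted p under 0.05, with a median of 0.40. Dusp1, a phosphatase of this class, was at 1.00 (adjusted p = 0.0994 by limma). It counts among the glucocorticoid-responsive genes as well, so the 2 lists are not separate. Diet replicate 1 did not follow, at a mean deviation of -0.09 against 0.25 to 0.81 in the other 4. All 8 replication-dependent histone genes had a positive value (median 0.43). Of 23 genes of the unfolded protein response 5 were lower and 0 higher (median -0.15), and Hspa5, the main chaperone of the endoplasmic reticulum, was at 237, 235, 230 and 300 without diet and at 220, 107, 130, 71.8 and 171 with it (-0.93, adjusted p = 0.133). All 54 cytosolic ribosomal protein genes had values of 0 or above with a median of 0.11, which became -0.09 without scaling. Diet replicates 2 and 4 were high on this list, with mean deviations of 0.49 and 0.46 against -0.17, -0.12 and -0.01 in replicates 1, 3 and 5. The median was 0.02 with 32 of 54 genes positive without replicate 2, and 0.04 with 33 positive without replicate 4. Of the 6 clock activators all had a positive value (median 0.26).

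**Figure D4:**
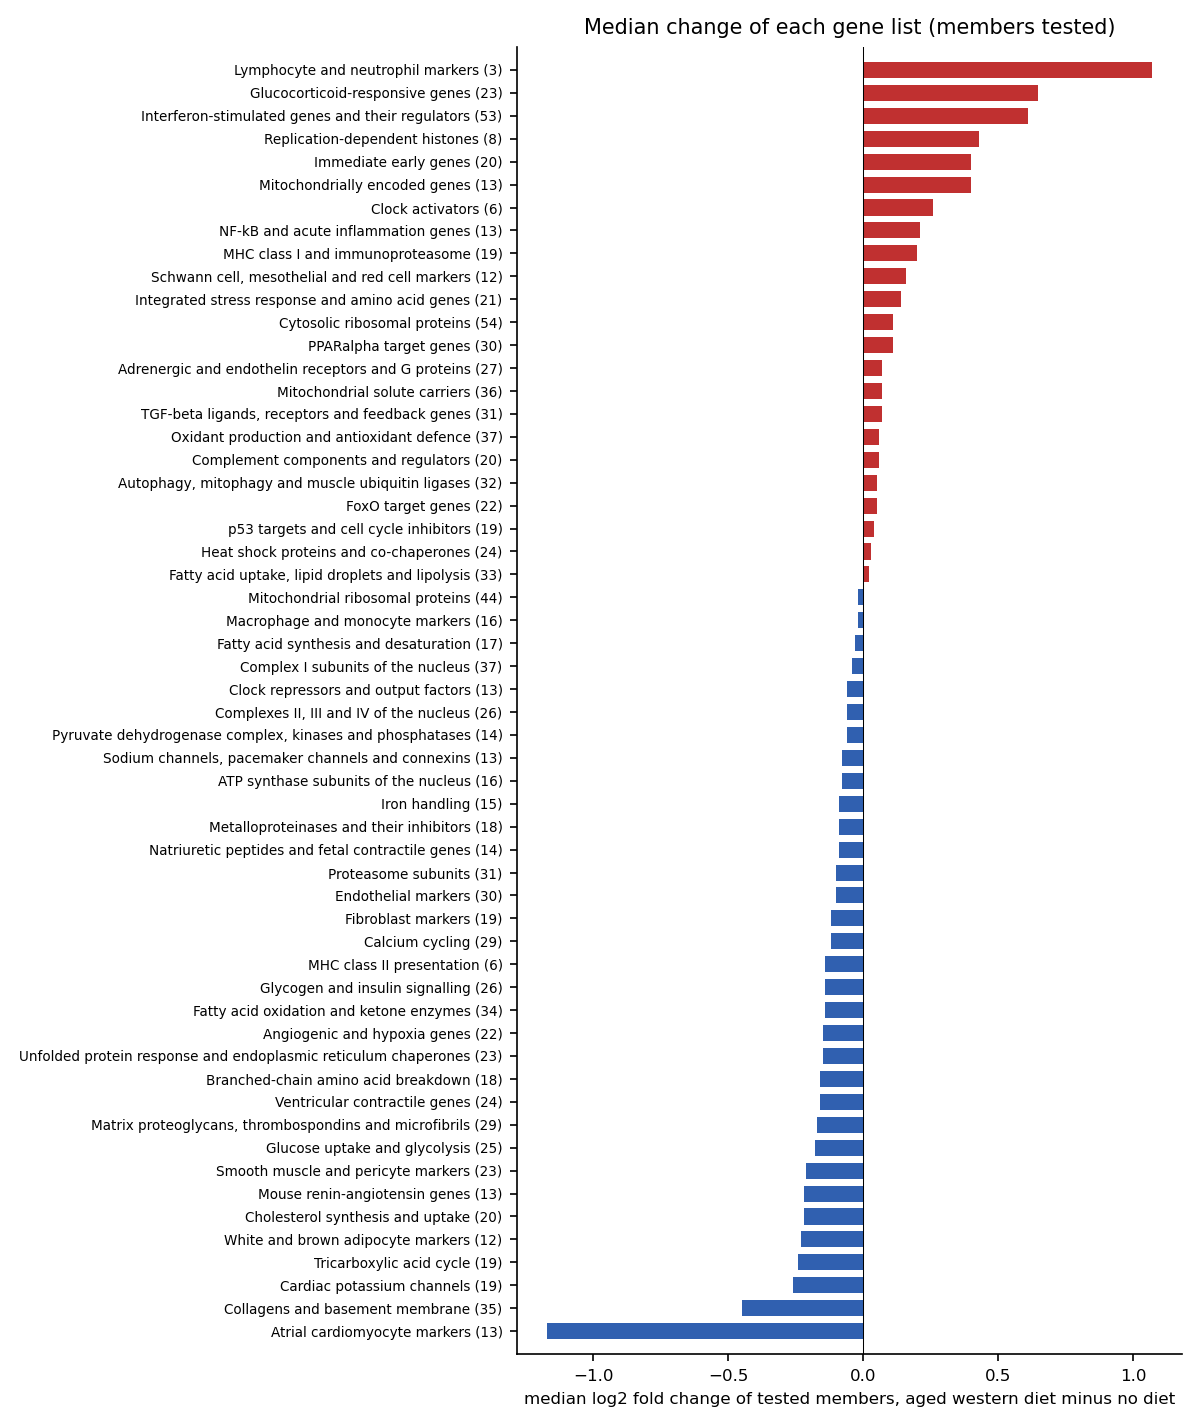
Median log2 fold change, western diet minus no diet (x axis), of the tested members of each gene list (rows, number tested in brackets). Red bars are above 0 and blue bars below, with interferon-stimulated genes at 0.61, glucocorticoid-responsive genes at 0.65 and collagens at -0.45 beside 0.003 for all genes.

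The smallest p-values of the comparison belonged to Gm16867, Entpd4b and Wdfy1. Gm16867 was at 2.53, 2.08, 4.13 and 2.54 without diet and at 0.323, 0.302, 0.272, 0.400 and 0.454 with it (-1.48, SE 0.12, adjusted p = 3.06e-05 by limma). All aged diet values of Gm16867 were below 1, so it met the filter outside that group. Entpd4b, a copy of the nucleotide-hydrolysing Golgi enzyme Entpd4, was at 17.6, 17.2, 21.2 and 18 without diet and at 8.12, 10.1, 9.83, 10.7 and 9.05 with it (-0.89, SE 0.08, adjusted p = 0.000114). The hearts without diet lay above all the other 12 libraries for both genes.

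Those entries are copies and neighbours on chromosome 14, with Entpd4 at chr14:69337174-69367270, Gm16867 at chr14:69363504-69503362 and Entpd4b at chr14:69555424-69585520. Every 31-base word of Entpd4 and of Entpd4b, and 98.9% of those of Gm16867, occur in other gene entries, so that the division of reads among them is uncertain. Their sum was 55.8, 54.1, 81.4 and 57.4 without diet and 31.3, 35.3, 35.3, 34.4 and 21.4 with it. The sum was 1.97 times as high without diet, at 62.2 ± 12.9 and 31.5 ± 5.90, and adult Hap-I hearts on the diet held 31.5 ± 3.42 and C57 hearts 23.8 ± 2.57.

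Wdfy1, an endosomal adaptor protein, was at 0.811, 1.20, 0.743 and 1.37 without diet and at 2.54, 4.57, 3.22, 4.45 and 4.30 with it (1.24, SE 0.13, adjusted p = 0.000247 by limma). Adult Hap-I hearts on the diet had 3.74 to 4.15 and C57 hearts 3.18 to 3.34, so that the hearts without diet were the low group. In 8 of the 19 genes, among them Gm16867, Entpd4b, Wdfy1, Extl2, Pdk4, Lrrn4cl and C7, the 4 aged hearts without diet lay outside the other 12 libraries, as they did in 126 of all genes (1.1%). The 5 aged diet hearts lay outside the other 11 libraries in 3 of the 19 (Extl2, Rnf44 and Myl9) and in 75 of all genes (0.657%). Extl2, a glycosyltransferase, counts in both, with no diet at 5.5 ± 0.236, diet at 3.67 ± 0.355 and the other libraries between them.

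The remaining genes that passed were of varied or unassigned function. Lrrn4cl, a membrane protein, rose from 0.729 ± 0.190 to 1.80 ± 0.345 (0.69, adjusted p = 0.022 by limma), and Rnf44, a RING finger protein, from 8.76 ± 0.646 to 12 ± 0.722 (0.41, adjusted p = 0.0411). Smim3, a small membrane protein, fell from 4.43 ± 0.265 to 2.58 ± 0.404 (-0.60, adjusted p = 0.0478). Tmem181b-ps, a pseudogene with 59.9% of its words in other entries, rose from 1.63 ± 0.224 to 5.71 ± 2.21 (1.28, adjusted p = 0.0411). Banp, a nuclear DNA-binding protein, was at 2.05, 2.00, 2.64 and 2.89 without diet and at 5.40, 7.11, 6.13, 3.15 and 5.52 with it (0.90, adjusted p = 0.045). Its C57 hearts held 5.11 to 7.97 and its adult Hap-I hearts 2.18 to 3.27, close to the aged hearts without diet.

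The other pair of groups gives western-diet Hap-I hearts of adults against C57 hearts, with no library in common with the aged pair. Of the 19 genes, 4 passed there in the same direction, which were Cntn2 (-1.27, adjusted p = 0.00255 by limma), Pdk4 (1.60, adjusted p = 0.0104), Myh11 (-0.98, adjusted p = 0.0159) and Slc25a22 (0.85, adjusted p = 0.00227). Banp passed in the opposite direction (-0.96, adjusted p = 0.0149). In all, 13 had the same sign and 6 the opposite. The 2 contrasts differed at an adjusted p under 0.05 in 6 of them, with aged minus adult differences that included -1.87 for Gm16867, -0.92 for Entpd4b, 1.01 for Wdfy1, -0.90 for Kcnq1 and 1.86 for Banp.

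**Figure D5:**
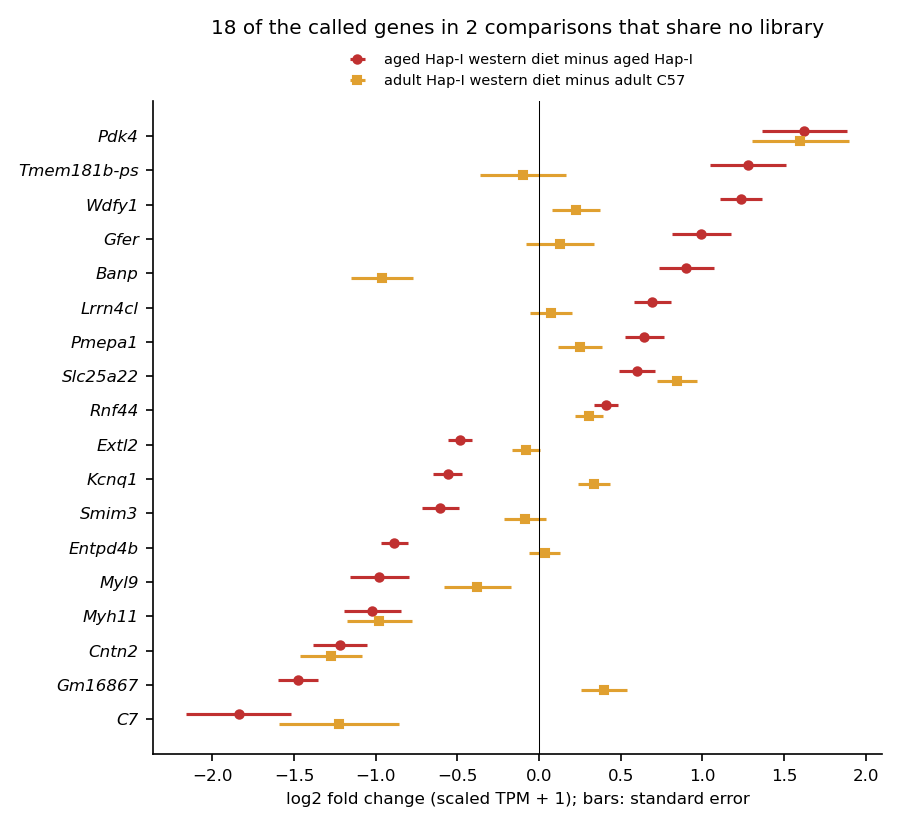
Log2 fold change (x axis) with its standard error (bars) of 18 of the 19 genes in aged Hap-I hearts (red circles, western diet minus no diet) and in adults (orange squares, Hap-I on western diet minus C57). Pdk4 lies at 1.62 and 1.60 and Cntn2 at -1.22 and -1.27, whereas Banp lies at 0.90 and -0.96.

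Across all 16 libraries, the 9 labelled as fed the western diet lay wholly above the 7 others in 17 genes (0.149%) and wholly below in 34 (0.298%). Cntn2, C7 and Slc25a22 are the 3 of them among the 19. Others below were Cyp1a1, a drug-metabolising enzyme induced through the aryl hydrocarbon receptor, and Slc2a1. Cyp1a1 was at 1.1, 0.711, 0.693 and 0.901 in aged hearts without diet and 0.329, 0.663 and 2.44 in C57 hearts. All 9 diet libraries were at 0.0506 or less, and 3 of them were at 0. Cyp1a1 was kept only through libraries without the diet, so no test is given for it. Cntn2 too was kept through libraries without the diet, and its tests carry that limit.

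Other genes did not pass the test although their groups did not overlap. Ccl9, a chemokine, was at 2.31, 3.27, 2.88 and 2.78 without diet and at 7.78, 8.33, 7.46, 9.72 and 5.76 with it (1.20, adjusted p = 0.0522 by limma). Rbm3, an RNA-binding protein induced by cold, was at 41.5, 46.2, 45.2 and 43.2 against 15.5, 21.9, 15.5, 35.9 and 31.4 (-0.93, adjusted p = 0.0615). Mthfd2, a mitochondrial enzyme of folate metabolism, averaged 0.903 ± 0.173 and 1.74 ± 0.277 (0.52, adjusted p = 0.0527). Penk, the enkephalin precursor, averaged 9.15 ± 1.03 and 3.91 ± 1.60 (-1.09, adjusted p = 0.0893). The values of Rbm3 and Penk were closer to 0 when Y-linked transcripts were taken into account. Rbm3 was at -0.38 (adjusted p = 0.191) with only libraries that hold them, and Penk at -0.53 (adjusted p = 0.288) with the covariate for them.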

How the data were processed

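Poly(A)-selected, stranded RNA libraries of 16 hearts were deposited as 1 table of TPM per gene, and the submitters' processing notes name kallisto, DESeq2 and the build GRCm38, with no versions. TPM values as deposited by the authors keep no read depth, so depth is unknown and no counting interval was given. Each library was divided by a median-of-ratios size factor (0.678 to 1.231) and taken to log2(value + 1). A gene was kept at 1 TPM or more in at least 3 libraries. limma 3.58.1 (R 4.3.3) with a variance trend was fitted to 4 group means, p-values were Benjamini-Hochberg adjusted over 11415 genes, and genes at an adjusted p under 0.05 passed. Where 0.05 refers to an unadjusted p, it describes lists only. The adult contrast and the difference of both contrasts came from the same fit. A mean deviation is the mean over a list's members of a library's log2 value minus the aged no-diet mean. The fit was tested on simulated data.

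Gene symbols came from a table of gene names (421 entries had none), gene positions from the GENCODE annotation of GRCm38, and promoter windows from RefSeq (GRCm38.p6). Words of 31 bases shared between gene entries were counted in the GENCODE transcripts. Tables were handled with Python 3.11.15, pandas 2.3.3 and numpy 2.4.6 and drawn with matplotlib 3.10.9. The members and gene lists were chosen with earlier results of these data known. The text names genes that passed, the 15 largest positive and 15 largest negative among genes of non-overlapping groups, unadjusted p under 0.01 and a higher group mean of 5 scaled TPM or more as candidates, up to 4 members of smallest p per list, and members that define a list. Cyp1a1 was named after its values were seen. Some genes are not reported here. The other settings tried changed the scaling, pseudocount, filter, variance trend, libraries, covariates and length correction.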

Additional observations from a re-analysis of the deposited data

Results flagged for a closer look

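In 114 groups of 4 or 5 libraries (47 genes and 10 lists), the highest or lowest library stood apart in 9, where the gap to its nearest neighbour, divided by the range of the group, passed Dixon's critical value. For independent, normally distributed values chance passes that limit in about 1 in 20 groups, and these genes and lists are not independent. Slc25a22 was 9.92 scaled TPM in no-diet replicate 1, above the other 3. Entpd4 was 56.1 in no-diet replicate 3, the highest, and 11.9 in diet replicate 5, the lowest. Slc2a1 was lowest without diet in replicate 3, at 4.71. Oas2, an interferon-induced enzyme, was 14.6 in diet replicate 5 against 1.61 to 3.91 in the other 4 diet hearts. Sgk1 was 20.8 and Hspa5 300.0 in no-diet replicate 4, each the highest of its group. Genes of the tricarboxylic acid cycle had a mean deviation of -0.44 in diet replicate 5. Atrial markers had one of -0.89 in diet replicate 4, the highest of the diet hearts.

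The aged contrast minus the adult contrast passed the limma test of the difference for 6 of the 19 genes. Among these it was -1.87 for Gm16867, -0.92 for Entpd4b, 1.01 for Wdfy1, -0.90 for Kcnq1 and 1.86 for Banp.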

How the results depend on the processing

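All 19 genes kept their sign in those of the 24 other settings that fitted them. The count was 63 with quantile normalization, 6 with a filter at 5 TPM, 44 (34 higher, 10 lower) with a covariate for Y-linked transcripts, 139 with only libraries that hold them, 5 with an atrial marker covariate and 62 with a transcript length correction. It ranged from 4 to 92 when 1 library was left out, and was 17 to 27 in the other settings. The cause of these changes was not tested. Of 2604 gene values and list medians, 2305 stayed the same as in the main fit. For a gene, same means the same sign and side of the threshold. For a list median it means a shift below the pooled SD of the list's library means. The 67 that moved were list medians, and 5 gene values reversed. Nppa was 0.42 with the atrial covariate, Nppb 0.26 with only Y-linked libraries, and Myh7 0.06 with the atrial covariate. Myh7 ran from -0.44 to 0.08 when 1 library was left out, positive without diet replicate 2 (0.07) or 4 (0.08). No paired analysis was possible because replicates were numbered in accession order only. Depth is unknown, and 8 of the 19 genes were under 5 scaled TPM in their higher group.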
